A study of Mus musculus with 6 samples.

Results

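The 31 genes described here are classical targets that rise when the glucocorticoid receptor is activated, and they were taken by name from a list of such targets. The list leaves out Kruppel-like factors, metallothioneins, clock genes and pyruvate dehydrogenase kinases, which respond to the hormone as well. All 31 symbols were found among the 52550 mouse genes of the count files. They were followed in whole hearts of mice at postnatal day 7, in 3 control libraries and 3 libraries from a knockout group, GR-cKO, that lacks the receptor gene Nr3c1 in heart muscle cells. The study asked how this loss changes gene expression in the heart soon after birth. The labels name neither the Cre driver and the deleted exon nor the genotype of the controls, and whole heart also holds vessel, stromal and blood cells, which were not meant to lose the gene. In such bulk tissue, fewer cells of a type and less RNA per cell cannot be told apart.

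The glucocorticoid receptor is a transcription factor that waits in the cytoplasm with heat shock chaperones until cortisol or corticosterone binds it. It then enters the nucleus, binds DNA at a short inverted repeat and raises transcription of nearby genes, among them brakes of inflammation, kinases of salt balance and growth, enzymes of amino acid metabolism and ubiquitin ligases of muscle protein breakdown. In the heart the hormone is known for its part in maturation around birth. Many of its targets also answer to other signals, such as stress kinases, fasting and cyclic AMP, so their level does not follow the receptor alone.

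The receptor's own motif shows in the promoters of some of these genes, and 3 of them are printed here because they show how differently such promoters are built. RefSeq promoter windows (build GRCm38.p6), which run from 250 bases before to 50 bases after a start, were found for 25 of the 31 genes, with 36 windows in all since some genes have several starts. The bases before the start are given 5′ to 3′ on the gene's strand, with capitals for matches to the motifs AGAACA and ACANNNTGT of the receptor (letters other than N), to the forkhead motif GTAAACA and to the cyclic AMP motif TGACGTCA, searched on both strands.
Sgk1 (chr10:21993640-21993889, plus strand): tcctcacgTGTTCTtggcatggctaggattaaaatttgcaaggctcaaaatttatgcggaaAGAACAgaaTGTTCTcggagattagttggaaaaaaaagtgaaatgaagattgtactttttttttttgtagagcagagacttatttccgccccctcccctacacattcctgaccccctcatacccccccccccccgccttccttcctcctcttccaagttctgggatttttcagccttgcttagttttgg
Trim63 (chr4:134314870-134315119, plus strand): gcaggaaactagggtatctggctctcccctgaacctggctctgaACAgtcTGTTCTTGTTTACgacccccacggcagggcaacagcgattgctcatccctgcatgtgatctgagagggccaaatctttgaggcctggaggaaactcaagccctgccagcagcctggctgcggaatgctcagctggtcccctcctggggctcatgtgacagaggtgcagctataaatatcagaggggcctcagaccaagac
Dusp1 (chr17:26508473-26508722, minus strand): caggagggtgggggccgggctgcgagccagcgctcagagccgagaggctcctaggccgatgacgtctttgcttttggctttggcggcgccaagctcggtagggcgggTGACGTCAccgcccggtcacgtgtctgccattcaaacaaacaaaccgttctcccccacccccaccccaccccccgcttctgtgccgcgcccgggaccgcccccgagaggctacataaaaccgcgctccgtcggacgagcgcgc

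The Sgk1 window, which belongs to 1 of 6 starts of the gene in the table, holds the full inverted repeat (AGAACA, 3 free bases and TGTTCT), whose first base lies at position -189 from the start. Only 3 of 32851 promoter windows (0.00913%) hold that exact repeat. In the Trim63 window a forkhead match on the minus strand, at position -194 from the start, directly follows a match to the reverse of AGAACA at position -200, which overlaps a match to ACANNNTGT that begins at position -206. The Dusp1 window has the cyclic AMP motif at position -143 and no match to either short receptor motif.

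Over the 36 windows, 9 (25.0%, from 7 genes) held AGAACA, against 19.0% of all windows. The shorter repeat ACANNNTGT, which the full repeat contains, was in 8 windows (22.2%, from 7 genes, namely Galnt15, Glul, Lcn2, Map3k6, Sgk1, Slc10a6 and Trim63), against 6.85% of all windows. These counts describe letters in a short window. Windows of 1 gene are not independent of each other, and the genes were listed because the receptor is known to induce them.

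Libraries held 18135540 to 22999192 reads, of which 1.63 to 2.01% were spike-in transcripts. Each group had 1 female and 2 male hearts by Xist and genes of the Y chromosome. Nr3c1 was at 114, 131 and 99.7 CPM for the controls, in the order of replicates 1, 2 and 3, and at 57.6, 49.2 and 56.2 CPM for GR-cKO in that order, where CPM stands for read counts scaled to a common library size by the TMM method. It fell with a log2 fold change of -1.08 (edgeR adjusted p = 0.00101). The labels do not say where the 3′ reads lie relative to the deleted part. GR-cKO replicate 3 stood apart from the other hearts. Gm42418, a locus lying over ribosomal RNA sequence, took 10.9% of its mouse reads against 5.47 to 7.69% elsewhere, and its TMM factor was 0.904 against 1.01 to 1.06. Immediate early and handling genes, a list of 15 genes that respond within minutes to stress and dissection, summed to 591 CPM there against 301 to 348 CPM in the other 5 hearts. Cardiomyocyte markers were present in every heart, with 8 genes summing to 64392 to 75969 CPM in the controls, against 71114 to 85726 CPM in GR-cKO.

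The classical targets covered a wide range of levels. Because the libraries read the 3′ end of transcripts, CPM follows transcript number and was not divided by length. Averaged over the 6 hearts, 8 genes were at 100 CPM or more, 10 between 10 and 100, 9 between 1 and 10 and 4 under 1 CPM. The 8 most abundant were Trim63, Nfkbia, Tgm2, Glul, Angptl4, Rgs2, Fbxo32 and Tsc22d3. Below 1 CPM were Hif3a, Slc10a6, Lcn2 and Tat.

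**Figure D1:**
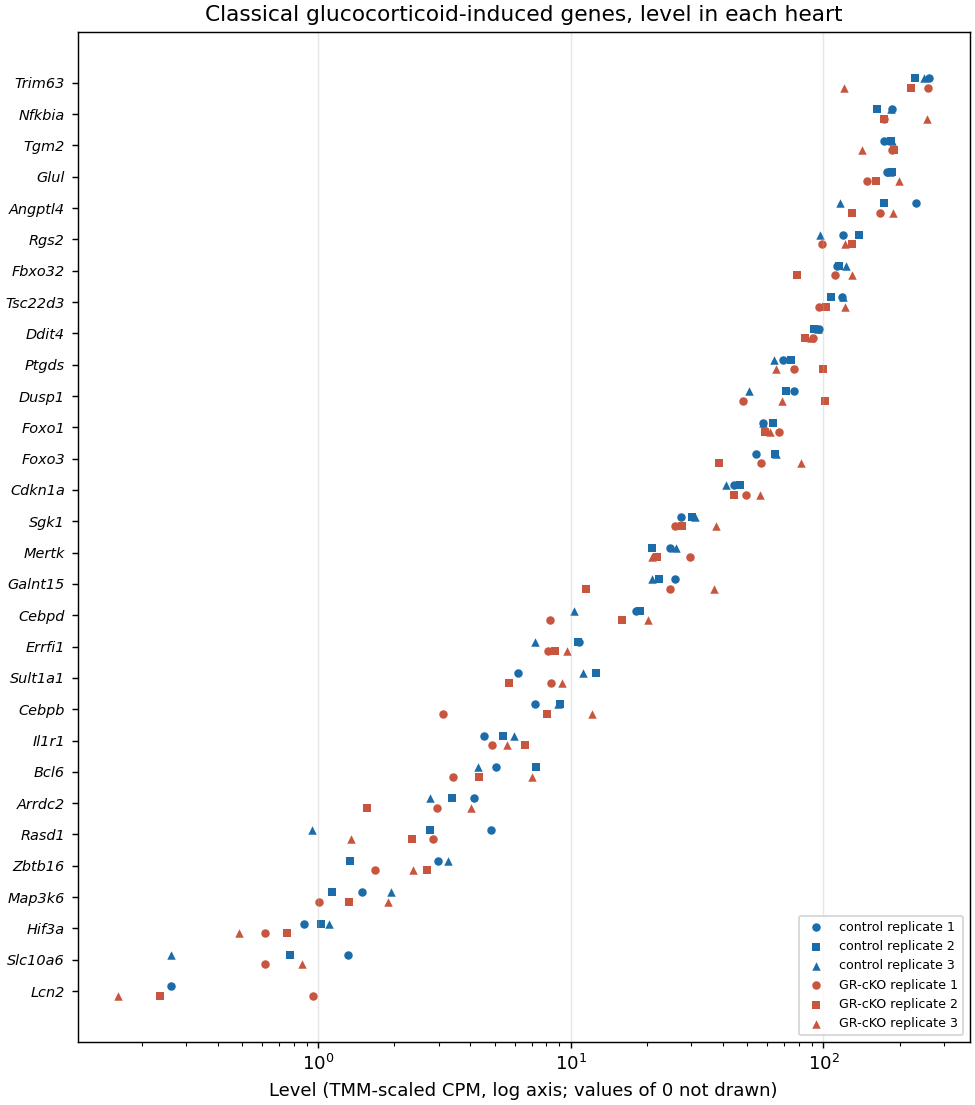
Level of each gene in each heart, as TMM-scaled CPM on a log axis, with genes ordered by their mean. Blue marks are control and red marks GR-cKO hearts, marker shape gives the replicate number, and values of 0 are not drawn, so that Tat is missing. Blue and red marks interleave for all tested genes except Hif3a and Ddit4.

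Of the 31 genes, 29 had enough reads for the test of GR-cKO against control hearts. None of the 29 passed, either higher or lower, at an adjusted p under 0.05 in the edgeR quasi-likelihood test. Nr3c1 alone passed among all 14860 genes tested (0.00673%). The smallest adjusted p among the 29 was 0.998. None had an unadjusted p under 0.05 either, where 2.13% of all genes were lower and 2.07% higher by that measure. DESeq2 and limma voom also called 0 of the 29.

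The direction was negative for 20 of the 29 genes and positive for 9, and the median log2 fold change was -0.10. Over all tested genes 48.7% were negative and the median was 0.01. Scaling by library totals gave 22 negative genes of the 29, beside 55.8% of all genes, and scaling by spike-in transcripts 18, beside 39.7%. Without GR-cKO replicate 1 only 15 of the 29 were negative, with a median of -0.016, beside 49.5% of all genes then tested, and without GR-cKO replicate 3 the count was 22. The 3 GR-cKO hearts lay entirely below the 3 controls for 2 of the 29 genes, Hif3a and Ddit4, and entirely above them for 0. Over all tested genes 5.27% lay entirely below and 4.7% entirely above. For 13 genes the 95% interval of the fold change stayed within 1.5-fold in both directions, a share close to the 47.8% of all genes. Those 13 were Tsc22d3, Foxo1, Foxo3, Sgk1, Nfkbia, Rgs2, Ddit4, Cdkn1a, Fbxo32, Glul, Ptgds, Mertk and Tgm2.

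**Figure D2:**
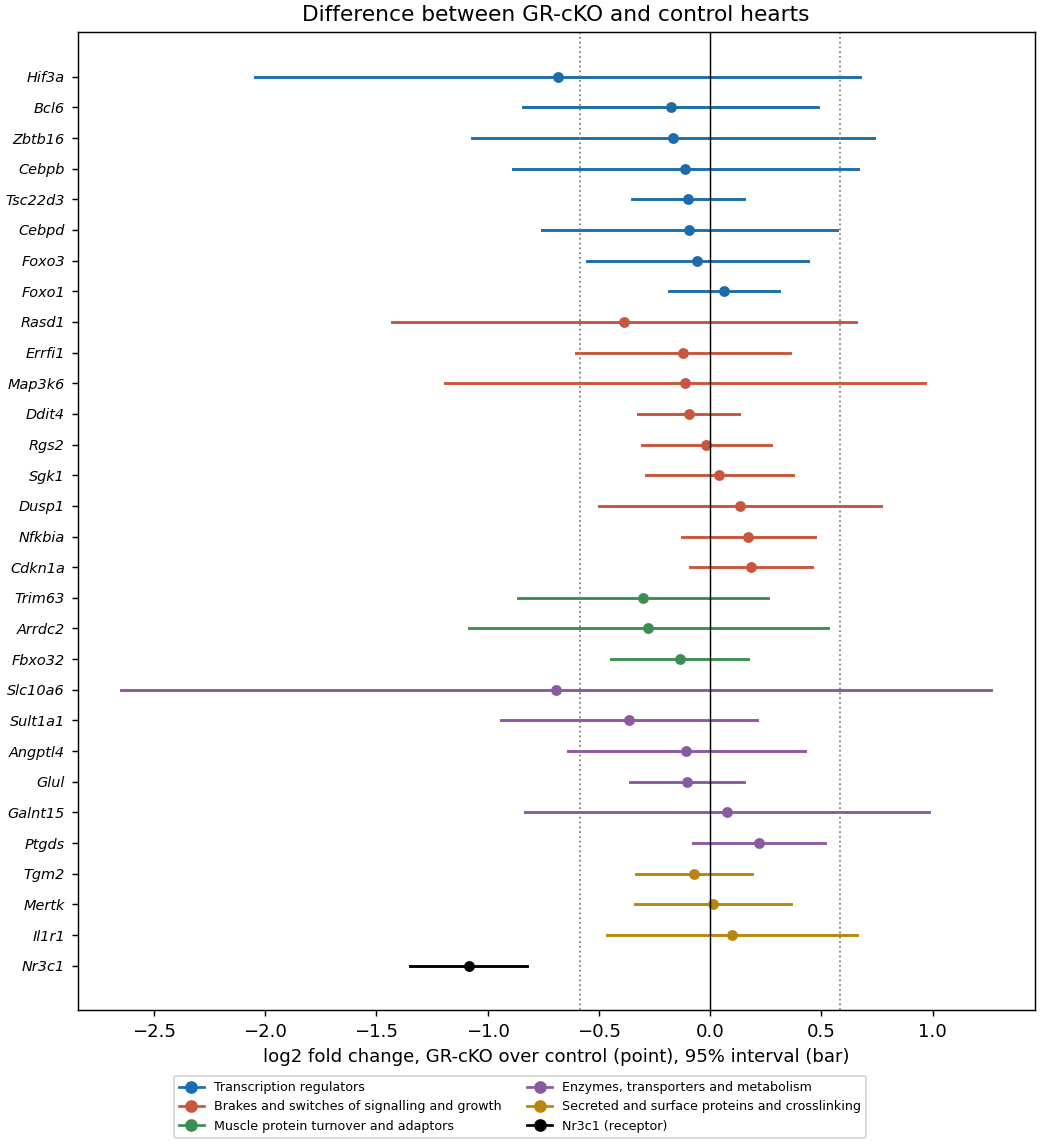
Log2 fold change of GR-cKO over control for the 29 tested genes and Nr3c1 (points) with 95% intervals (bars), coloured by role. Dotted lines mark a 1.5-fold change in each direction. The bars of all 29 targets cross 0, whereas that of Nr3c1 runs from -1.35 to -0.82.

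Among the transcription regulators, 8 genes in all, 7 had a negative fold change and 1 a positive one, and none passed. Tsc22d3 encodes GILZ, a leucine zipper protein that binds NF-kB and AP-1 and dampens inflammatory transcription. It was at 118, 107 and 119 CPM in control and 96.3, 103 and 122 CPM in GR-cKO replicates 1, 2 and 3. GR-cKO replicate 3 held the highest value of all 6 hearts and the other GR-cKO hearts the lowest values. The log2 fold change was -0.10 (SE 0.119, 95% bounds -0.35 and 0.15, edgeR adjusted p = 0.998).

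Zbtb16, which encodes the zinc finger repressor PLZF, was much less abundant. It was at 2.97, 1.34 and 3.25 CPM in the controls, against 1.68, 2.69 and 2.37 CPM in GR-cKO. The groups overlapped, and its log2 fold change was -0.17 with wide 95% bounds of -1.07 and 0.74 (SE 0.430, edgeR adjusted p = 0.999). Bcl6, another zinc finger repressor, was at 5.07, 7.30 and 4.30 CPM in the controls, against 3.41, 4.34 and 6.99 CPM in GR-cKO. Its highest values came from 1 heart of each group.

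Foxo1 and Foxo3 encode forkhead factors that switch on genes of fasting and muscle breakdown. Foxo1 was steady, at 57.7, 63.3 and 57.6 CPM in the controls, against 66.9, 58.4 and 61.2 CPM in GR-cKO (log2 fold change 0.06, SE 0.118, 95% bounds -0.18 and 0.31, edgeR adjusted p = 0.999). Foxo3 had nearly the same mean in both groups, 61.1 ± 5.94 CPM in the controls, against 58.7 ± 21.5 CPM in GR-cKO (each SD over n = 3). Its GR-cKO hearts were spread far apart, at 56.3, 38.4 and 81.3 CPM, and held both the lowest and the highest value of the 6 (log2 fold change -0.06, SE 0.223, 95% bounds -0.55 and 0.44, edgeR adjusted p = 0.999).

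Cebpb and Cebpd encode leucine zipper factors of the acute phase and of fat cell formation. In GR-cKO replicates 1, 2 and 3, Cebpb was at 3.13, 8.02 and 12.2 CPM, against 7.21, 9.09 and 8.92 CPM in control hearts. Cebpd was at 8.26, 15.9 and 20.2 CPM in GR-cKO and 18.2, 18.9 and 10.3 CPM in control hearts. For both genes GR-cKO replicate 1 was the lowest and GR-cKO replicate 3 the highest heart of all. Both overlap a gene on the opposite strand with reads of its own, Tmem189 and Spidr, so reads of the partners may enter their counts if strand was ignored.

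Hif3a encodes a member of the hypoxia-inducible factor family that can compete with the other alpha subunits. It had 20, 20 and 21 reads in control and 11, 16 and 9 reads in GR-cKO hearts, or 1.00 ± 0.116 and 0.618 ± 0.135 CPM (each SD over n = 3). All GR-cKO hearts lay below all controls. With so few reads the log2 fold change of -0.69 had an SE of 0.648 and a 95% interval of -2.05 to 0.67 (edgeR adjusted p = 0.998).

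The brakes and switches of signalling and growth, 9 genes, had 5 negative and 4 positive fold changes, and none passed. Sgk1, a kinase that keeps sodium channels at the cell surface and supports cell survival, was at 27.2, 30.1 and 30.9 CPM in the controls, against 25.8, 27.5 and 37.4 CPM in GR-cKO. GR-cKO replicate 3 was again the highest of all. The log2 fold change was 0.04 (SE 0.158, 95% bounds -0.29 and 0.37). The edgeR adjusted p was 0.999. Among the windows of its several starts, only the window printed above holds the full receptor repeat. Counts per gene do not tell the starts apart.

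Dusp1, a phosphatase that switches off stress-activated MAP kinases, varied widely in both groups. It was at 76.3, 70.9 and 50.9 CPM in the controls, against 48.1, 101 and 68.4 CPM in GR-cKO. GR-cKO hearts held the lowest and the highest value. The log2 fold change was 0.14 (SE 0.272, 95% bounds -0.50 and 0.77, edgeR adjusted p = 0.999). The Dusp1 model overlaps Ergic1 on the opposite strand, so part of its count may be uncertain. Nfkbia encodes the inhibitor that holds NF-kB in the cytoplasm. It was at 187, 164 and 186 CPM in the controls, against 173, 174 and 256 CPM in GR-cKO, where replicate 3 alone lay above the controls (log2 fold change 0.17, SE 0.142, 95% bounds -0.13 and 0.47, edgeR adjusted p = 0.998).

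Ddit4, which restrains the growth kinase mTORC1, was the other gene whose groups did not overlap. It was at 96.0, 91.4 and 95.3 CPM in the controls, against 90.7, 84.5 and 89.1 CPM in GR-cKO. The values were tightly grouped, and the difference was small, with a log2 fold change of -0.10 (SE 0.108, 95% bounds -0.32 and 0.13, edgeR adjusted p = 0.998). Cdkn1a, an inhibitor of cyclin-dependent kinases that halts the cell cycle, was at 44.2, 46.7 and 41.0 CPM in the controls, against 49.2, 44.4 and 56.0 CPM in GR-cKO (log2 fold change 0.18, SE 0.130, 95% bounds -0.09 and 0.46, edgeR adjusted p = 0.998).

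Rgs2, which shortens signalling through Gq-coupled receptors, was at 118 ± 20.7 CPM in the controls, against 116 ± 15.9 CPM in GR-cKO (each SD over n = 3), and the log2 fold change of -0.02 had 95% bounds of -0.31 and 0.27 (SE 0.138, edgeR adjusted p = 1.00). Errfi1, an inhibitor of ErbB receptors, was at 10.8, 10.7 and 7.24 CPM in the controls, against 8.15, 8.63 and 9.63 CPM in GR-cKO. Scarcer still was Rasd1, a Ras-like GTPase first known as a dexamethasone-induced gene. It ran from 0.944 to 4.81 CPM within the control group alone, which covered the GR-cKO range of 1.34 to 2.85 CPM. Map3k6, a stress kinase of the ASK family, was at 1.13 to 1.94 CPM in the controls, against 1.01 to 1.88 CPM in GR-cKO.

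The genes of muscle protein turnover, 3 in all, had negative fold changes, and none passed. Trim63 and Fbxo32 encode MuRF1 and atrogin-1, the ubiquitin ligases that mark contractile and other proteins for breakdown in wasting muscle. Trim63 was at 262, 231 and 249.7 CPM in the controls, against 259.6, 223 and 120.1 CPM in GR-cKO. Its lower mean rested on GR-cKO replicate 3, the only heart under 200 CPM. The log2 fold change was -0.30 on all hearts (SE 0.245, 95% bounds -0.86 and 0.26, edgeR adjusted p = 0.998). It was -0.04 (SE 0.106, 95% bounds -0.26 and 0.19) without GR-cKO replicate 3, and -0.53 without GR-cKO replicate 1.

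Fbxo32 was at 113, 115 and 123 CPM in the controls, against 111, 78.7 and 129 CPM in GR-cKO. GR-cKO replicate 3, the lowest heart for Trim63, was thus the highest for Fbxo32, and GR-cKO replicate 2 was the lowest. The Fbxo32 fold change was -0.14 on the log2 scale (SE 0.146, 95% bounds -0.44 and 0.17, edgeR adjusted p = 0.998). Arrdc2, an adaptor that brings ubiquitin ligases to membrane proteins, was at 4.15, 3.39 and 2.78 CPM in the controls, against 2.96, 1.56 and 4.03 CPM in GR-cKO. It had its lowest value in GR-cKO replicate 2 as well, like Foxo3 and Fbxo32.

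Of the enzymes, transporters and metabolic regulators, 6 of 7 genes were tested, with 4 negative and 2 positive fold changes and none passing. Glul, glutamine synthetase, was closely grouped in control hearts at 178, 186 and 184 CPM, and at 149, 162 and 199 CPM in GR-cKO hearts. As for Tsc22d3, GR-cKO replicates 1 and 2 were the lowest of the 6 hearts and GR-cKO replicate 3 the highest (log2 fold change -0.11, SE 0.122, 95% bounds -0.36 and 0.15, edgeR adjusted p = 0.998). Angptl4, a secreted inhibitor of lipoprotein lipase, was at 232, 173 and 117 CPM in the controls, against 167, 129 and 188 CPM in GR-cKO, and the control hearts spanned all the others. Adipose markers, a possible other source of Angptl4, summed to 1156 to 1625 CPM in the controls, against 1157 to 1423 CPM in GR-cKO, with Retn and Lep at 0. Fabp4, at 1028 to 1338 CPM over the 6 hearts, and Cidea made up most of that sum. Other fat markers differed widely between hearts, with Ucp1 at 6.78, 89.3 and 0.420 CPM in the controls and 0, 18.8 and 3.93 CPM in the knockouts, and Adipoq, Plin1 and Cidec were likewise highest in control replicate 2. The part of fat tissue in the Angptl4 values was not tested.

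Ptgds, which makes prostaglandin D from its precursor, had the highest fold change of the 29 genes. It was at 68.9, 74.2 and 63.7 CPM in the controls, against 76.2, 99.8 and 64.8 CPM in GR-cKO (log2 fold change 0.22, SE 0.141, 95% bounds -0.08 and 0.52, edgeR adjusted p = 0.998). Only GR-cKO replicate 2 stood clearly above the controls. Galnt15, an enzyme that starts O-linked sugar chains, was at 23.1 ± 2.54 CPM in control hearts (SD, n = 3) and at 24.8, 11.5 and 36.8 CPM in GR-cKO, with its lowest and its highest value in the knockout group.

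Sult1a1, a sulfotransferase for phenols, was at 6.16, 12.6 and 11.2 CPM in the controls, against 8.32, 5.71 and 9.20 CPM in GR-cKO (log2 fold change -0.36, 95% bounds -0.94 and 0.21). It overlaps Sgf29 on the opposite strand. Slc10a6, a carrier of sulfated steroids, had 30, 15 and 5 reads in control and 11, 0 and 16 reads in GR-cKO hearts. Its log2 fold change of -0.69 was the most negative of the 29 and the least certain, with an SE of 0.931. Tat, tyrosine aminotransferase, a liver enzyme and textbook glucocorticoid target, had 0 reads in every heart, which allows at most 0.168 CPM in the library where a read weighs most (3 reads).

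Of the secreted, surface and crosslinking proteins 3 of 4 were tested, and none passed. Tgm2, a transglutaminase that crosslinks proteins, was at 173, 185 and 186 CPM in the controls, against 186, 189.8 and 142 CPM in GR-cKO, where replicate 3 was the only low heart (log2 fold change -0.07, SE 0.125, 95% bounds -0.33 and 0.19, edgeR adjusted p = 0.999). Tgm2 overlaps Rprd1b on the opposite strand. Mertk, a receptor with which macrophages take up dead cells, was at 23.9 ± 2.62 and 24.2 ± 4.74 CPM, controls first (each SD over n = 3), and differed by 0.01 on the log2 scale (SE 0.167, 95% bounds -0.34 and 0.36, edgeR adjusted p = 1.00). Il1r1, the interleukin-1 receptor, was likewise at 5.31 ± 0.720 and 5.67 ± 0.851 CPM. Macrophage markers also overlapped between groups, with 8 genes summing to 153 to 186 CPM in the controls, against 160 to 193 CPM in GR-cKO.

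Lcn2, an iron-carrier binding protein of neutrophils and inflamed tissue, was too scarce to test. It had 6, 0 and 0 reads in control and 17, 5 and 3 reads in GR-cKO hearts, and GR-cKO replicate 1 held the most. Neutrophil markers, 8 genes, summed to 13.1 to 15.4 CPM in the controls, against 19.7 to 27.8 CPM in GR-cKO. Their highest sum, 27.8 CPM, was also in GR-cKO replicate 1, Elane was at 0 in every heart, and all 5 tested markers were higher in GR-cKO without 1 passing. The part of neutrophils in the Lcn2 reads was not tested.

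**Figure D3:**
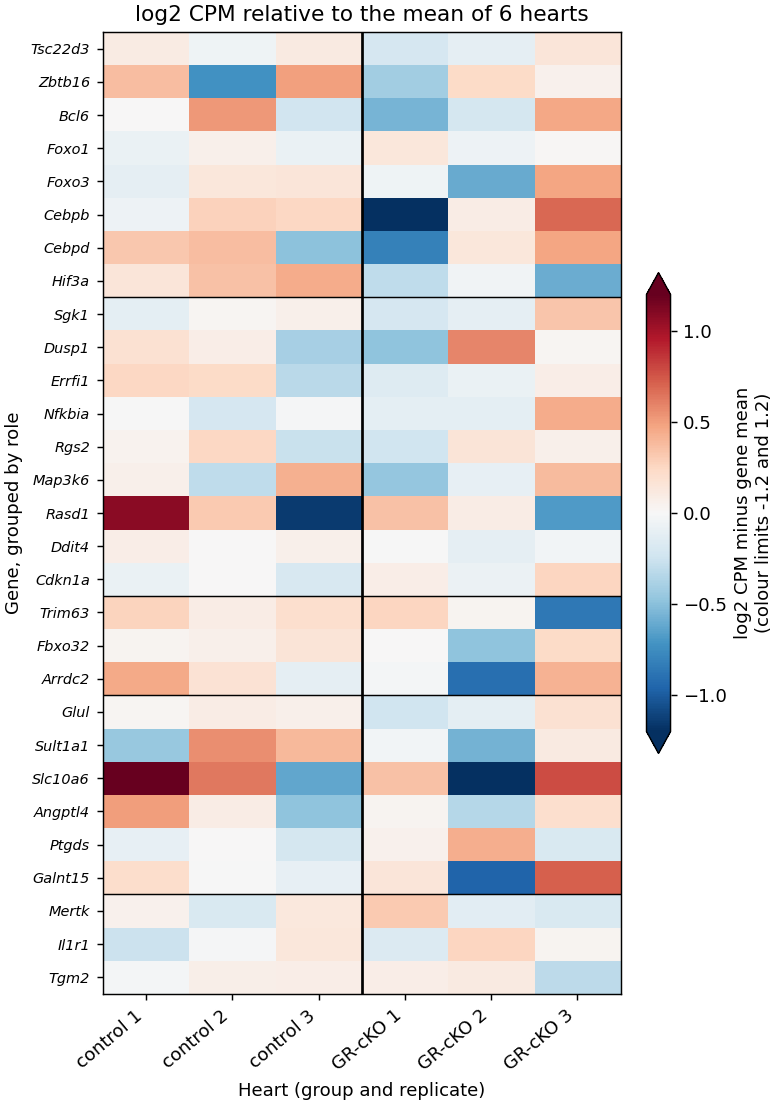
Log2 CPM of the 29 tested genes (rows, grouped by role) in the 6 hearts (columns), each relative to the gene's mean over the hearts, with red for higher and blue for lower. Foxo3, Arrdc2 and Galnt15 are low in GR-cKO replicate 2 and high in replicate 3, Cebpb and Cebpd are low in GR-cKO replicate 1 (-1.24 and -0.81), and Trim63 is low in GR-cKO replicate 3 (-0.85).

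By the coefficient of variation, the knockout hearts differed more among themselves than the control hearts for most of the 29 genes. The coefficient of variation was larger in GR-cKO than in control hearts for 23 of the 29 genes (79.3%), and for 57.1% of all tested genes. Its median over the 29 genes was 11.6% in control and 23.1% in GR-cKO hearts, beside 14.2% and 16.6% over all tested genes. With 3 hearts per group each such value is imprecise, and the difference was not tested. The values also include GR-cKO replicate 3, which stood apart. Over tested genes with enough reads, the chi-square per degree of freedom between GR-cKO replicates 1 and 2 was 18.5. It was 11.3 to 24.1 between controls. Between GR-cKO replicate 3 and GR-cKO replicates 1 and 2 it was 36.1 and 57.2. How far that heart accounts for the larger spread was not tested.

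GR-cKO replicate 3 accounted for many of the extreme values. It was the highest heart for 10 of the 29 genes, namely Tsc22d3, Foxo3, Cebpb, Cebpd, Sgk1, Nfkbia, Cdkn1a, Fbxo32, Glul and Galnt15. It was the lowest for Hif3a, Trim63 and Tgm2. GR-cKO replicate 1 was the lowest for 8 genes, and GR-cKO replicate 2 and control replicate 3 for 7 each. Control replicate 1 was the highest for 7. The same tallies were not made over all tested genes, so they cannot be read as a trait of these 29. The mean log2 level of the 29 genes, relative to the mean of the 6 hearts, was 0.15, 0.10 and -0.05 for the controls and -0.13, -0.19 and 0.13 for GR-cKO, both in replicate order. The same measure for 14 tested immediate early and handling genes was 0.05, -0.00 and -0.37 in control and -0.22, -0.03 and 0.57 in GR-cKO hearts. Jun, a subunit of AP-1, was at 269 CPM in GR-cKO replicate 3 and at 98.3 to 139.6 CPM in the other 5 hearts. How far these genes and the heart's other peculiarities account for its high values of the classical targets was not tested.

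**Figure D4:**
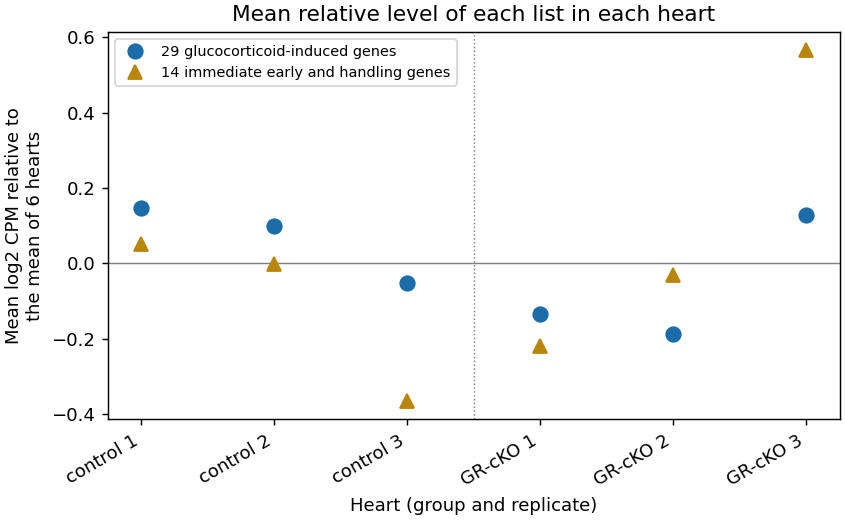
Mean log2 CPM of the 29 tested classical targets (circles) and of 14 immediate early and handling genes (triangles) in each heart, relative to the mean of the 6 hearts. GR-cKO replicate 3 has the highest triangle, at 0.57, and the only positive circle of its group, at 0.13.

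Without GR-cKO replicate 3 the fold change was lower for 20 genes and higher for 9, a split that was not counted over all tested genes. None of the 29 genes passed, where 0.013% of all genes then passed lower and 0% higher. The median log2 fold change was -0.20 and 22 genes were negative, where 50.7% of the 15385 genes then tested were negative. The smallest edgeR adjusted p among the 29 was 0.942. At an unadjusted p under 0.05, 3 genes were lower, where 2.65% of all genes were, and 1 was higher, where 2.49% of all genes were. The 3 were Foxo3 (log2 fold change -0.37, SE 0.151), Fbxo32 (-0.30, SE 0.128) and Glul (-0.23, SE 0.102), and the 1 was Ptgds (0.35, SE 0.126). Tsc22d3 had -0.21 (SE 0.106), Cebpb -0.58 (SE 0.325) and Sgk1 -0.14 in that comparison. In 4 genes, Sgk1, Nfkbia, Galnt15 and Tgm2, the sign changed when that heart was left out.

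**Figure D5:**
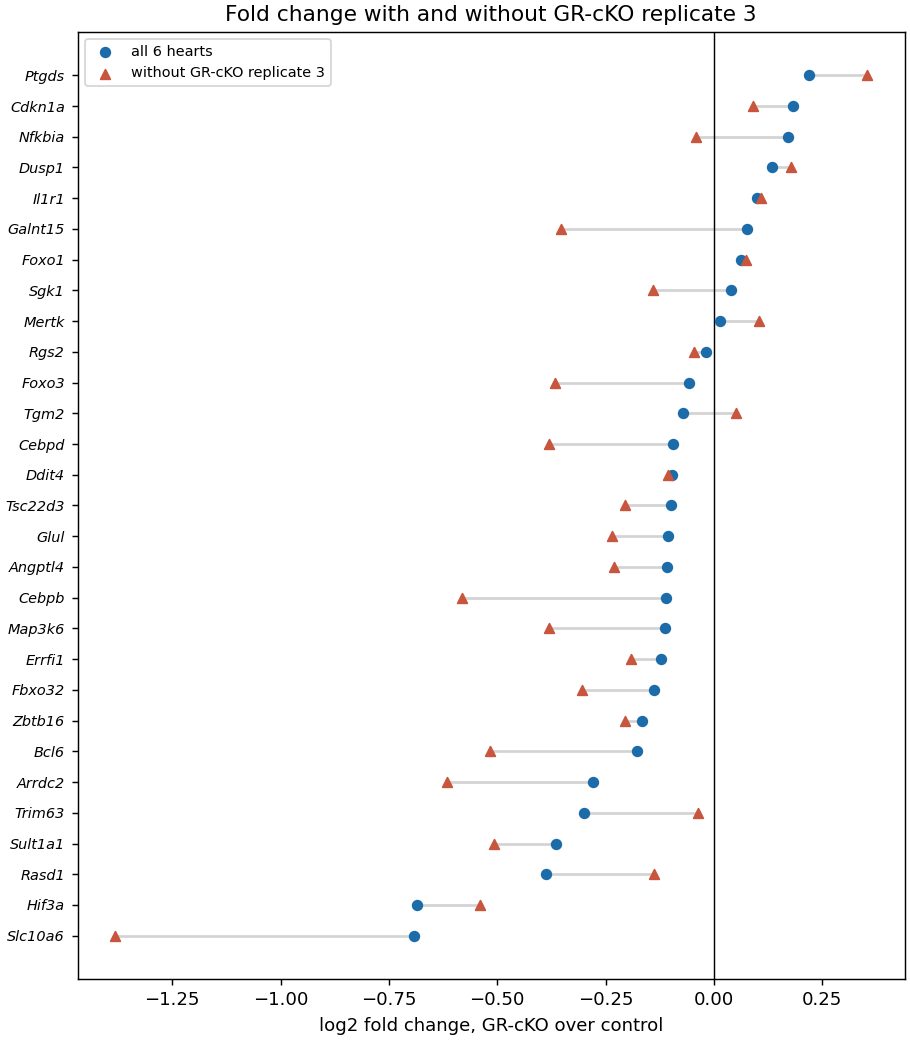
Fold change (log2 scale, GR-cKO over control) of the 29 tested genes on all 6 hearts (circles) and without GR-cKO replicate 3 (triangles), joined by lines. For 20 genes the triangle lies to the left of its circle, and for 9 to the right, among them Trim63, Rasd1 and Hif3a. This split was not counted over all tested genes.

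The rest of the pathway gave 1 call, Nr3c1 itself. Of 50 further genes of glucocorticoid signalling in 5 lists, 43 were tested. Of the 42 without Nr3c1 none passed, with 22 negative and 20 positive fold changes. At an unadjusted edgeR p under 0.05, 4 were lower and 0 higher, where 2.13% and 2.07% of all tested genes were. The GR-cKO hearts lay entirely below the controls for 6 and entirely above for 0, where 5.27% and 4.7% of all tested genes did. These lists were chosen with earlier results known. Chaperones of the receptor had 4 negative and 4 positive among 8 tested genes. Fkbp5, the co-chaperone that lowers the receptor's affinity for hormone and is itself a standard target, was at 12.7, 12.7 and 11.6 CPM in the controls, against 10.4, 9.10 and 6.51 CPM in GR-cKO. All GR-cKO hearts lay below all controls, but the log2 fold change of -0.51 (SE 0.220) did not pass (edgeR unadjusted p = 0.0322, adjusted p = 0.998). Unlike many of the classical targets, Fkbp5 was lowest in GR-cKO replicate 3.

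Cofactors of the receptor, 10 tested genes, had 3 negative and 7 positive fold changes between -0.20 and 0.13 on the log2 scale. Other induced genes outside the list of 31 had 11 negative and 5 positive values among 16 tested, with a median of -0.16, and 3 were lower at an unadjusted p under 0.05, where 2.13% of all tested genes were. The 3 were Mt1, Mt2 and Sesn1, named after their values were seen. Inflammatory genes that the receptor is known to hold down had 6 of 12 members tested, 3 negative and 3 positive. The ligand-supplying enzyme gene Hsd11b1 had too few reads to test.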

How the data were processed

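RNA of 6 hearts was sequenced with a kit that reads the 3′ end of polyadenylated transcripts, from 100 ng of total RNA per library, per the labels' protocols. The deposited files hold whole-number read counts per Ensembl mouse gene, not normalized. Reads were handled with STAR 2.5.4a and featureCounts 1.6.2 on GRCm38 and with cutadapt 1.16, bcl2fastq and DESeq2 1.18.1, besides quality reports from MultiQC 1.5 and FastQC 0.11.7, as named without roles in the submitters' processing notes. The sources used here do not give the annotation release, strand setting or read filters. Symbols came from GENCODE M21 of the same build, which matched 52403 of 52550 gene identifiers.

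Library sizes and tests excluded 99 rows of spike-in transcripts. Genes were filtered with filterByExpr by group, scaled by TMM and tested for genotype with the quasi-likelihood F test of edgeR 4.0.16 with robust dispersion (R 4.3.3), with Benjamini-Hochberg adjustment over all 14860 tested genes at a threshold of 0.05. A positive fold change means a higher value in GR-cKO, and 95% intervals follow the model's SE. Log2 CPM used a prior count of 2. DESeq2 1.42.0, library totals, spike-in scaling, no count filter, a replicate block, sex as a term and leaving out each heart were alternatives. Limma 3.58.1 voom was added after seeing the data. The fit was tested on simulated data. Counting floors and intervals cover counting or heart-to-heart error only, since reads carry no molecular identifiers.

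The 31 genes, their roles and the other lists were chosen with earlier results of these data known. By the rule for named genes, all 31 are accounted for, with full statistics for Tsc22d3, Sgk1, Zbtb16 and Dusp1, for genes whose groups do not overlap, for any with an unadjusted p under 0.05 and for those whose 95% interval excludes a 1.5-fold change both ways. Of the other pathway lists, Nr3c1 and Fkbp5 are given with values. Jun and Gm42418 were named after their values were seen. The lists of endothelial, fibroblast, skeletal muscle, epicardial, mural and meningeal markers gave 0 called genes.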

Additional observations from a re-analysis of the deposited data

How the results depend on the processing

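No classical target was called under any of the 13 alternatives, and their smallest adjusted p over these was 0.848, without the count filter. Over all genes, DESeq2 called 3 lower and 1 higher, no count filter 6 and 4, and library totals 2 lower. Leaving out 1 heart gave 1 to 2 lower, with 2 without GR-cKO replicate 2 or 3. The full receptor repeat was in 1 promoter window of the 36. Signs of log2 fold changes turned for Mertk (-0.017) and Sgk1 (-0.0083) with library totals, for Rgs2 (0.047) and Tgm2 (0.000683) with spike-in scaling, and for Galnt15 (-0.11) and Mertk (-0.00317) with limma voom, chosen after seeing the data. Library totals moved the share of negative values over all genes from 48.7% to 55.8% and spike-in scaling to 39.7%, with 22 and 18 negative targets. With the replicate block Galnt15 turned to -0.056 and 21 targets were negative. After each group's mean was removed, same-numbered hearts correlated at 0.01 to 0.06 and differently numbered hearts at -0.09 to 0.03. With 3 hearts per group such values cannot decide whether replicate numbers pair the hearts. The cause of the sign changes was not tested. Leaving out each heart in turn gave 15 to 22 negative targets with medians of -0.20 to -0.02 and turned signs, with log2 ranges of Angptl4 -0.33 to 0.15, Arrdc2 -0.62 to 0.018, Bcl6 -0.52 to 0.068, Cebpb -0.58 to 0.27, Cebpd -0.38 to 0.19, Dusp1 -0.18 to 0.36. Further ranges were Fbxo32 -0.30 to 0.037, Foxo3 -0.37 to 0.17, Galnt15 -0.35 to 0.42, Il1r1 -0.023 to 0.20, Map3k6 -0.38 to 0.10, Mertk -0.15 to 0.11. The remaining ranges were Nfkbia -0.042 to 0.27, Rasd1 -0.80 to 0.23, Rgs2 -0.14 to 0.11, Sgk1 -0.14 to 0.15, Tgm2 -0.15 to 0.051, Zbtb16 -0.47 to 0.055. With 3 hearts per group and few reads, the 95% intervals of Hif3a, Slc10a6, Zbtb16, Rasd1 and Map3k6 reach well beyond a 1.5-fold change. Those of the more abundant Trim63, Angptl4, Dusp1 and Galnt15 also pass 1.5-fold in at least 1 direction.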
